A study of Mus musculus with 28 samples.

Results

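The canonical histone cluster genes code for the histones that package newly copied DNA, and they sit together in clusters of small genes. They were taken as the rows whose symbol starts with Hist1h, Hist2h, Hist3h or Hist4, which gave 68 of the 24421 rows of the count table. A row was kept when it reached 0.5 counts per M counts (CPM) in at least 4 of the 28 libraries, and 46 rows were kept. These were 5 of 6 rows of the linker histone H1, 10 of 18 of H2A, 15 of 19 of H2B, 8 of 12 of H3 and 8 of 13 of H4. On GRCm38, 40 of the kept genes lie on chromosome 13, 3 on chromosome 3, 2 on chromosome 11 and 1 on chromosome 6.

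RNA was sequenced from sorted thymocytes of mice of 3 genotypes at 2 stages. There were 5 libraries each of Ldb1-KO DN4 and Lmo2tg DN4 cells, 4 of wild-type DN4 cells, 5 each of Ldb1-KO DN2/3 and Lmo2tg DN2/3 cells, and 4 of wild-type DN2/3 cells. Ldb1-KO is short for the group labelled Lmo2tg; Ldb1-KO, which carried the Lmo2 transgene and was deleted for Ldb1 with floxed alleles and Cre. Lmo2tg mice carried the transgene with Ldb1 intact, and the wild type was C57BL/6, with neither change. Lck-Cre, Rag1-Cre and IL-7Ra-Cre lines, a Rosa26-EYFP-Cre reporter and CD45.1 congenic mice stand in the growth protocol. The sources used here do not say which of them entered each sample, which promoter drives the transgene or how old the mice were. Nor do they say that replicates are separate animals, so p-values measure the spread between these libraries, which may be technical. Values after ± are SD over the 5 libraries of an Ldb1-KO or Lmo2tg group or the 4 of a wild-type group. DN2/3 and DN4 are successive stages of thymocytes without surface CD4 or CD8, while another label reads CD4 T cells.

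Replication-dependent histone genes are transcribed during S phase, when DNA is copied, from a nuclear body organised by Npat. Their messages mostly lack a poly(A) tail and end a few bases after a short stem-loop, which the stem-loop binding protein Slbp holds. The U7 snRNP takes part in the cut that forms this end. Some of these genes also give longer, polyadenylated messages, above all in cells that have left the cycle. Thymocytes that have formed a pre-T-cell receptor divide fast as they pass from DN3 to DN4. The libraries were made with the TruSeq RNA Sample Prep V2 kit, which selects RNA with oligo-dT beads, so the levels given here are of histone RNA that entered such a library and not of all histone RNA in the cells.

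The stem-loop, which marks an end without a poly(A) tail, was searched in the annotated 3′ ends as 16 bases that hold a perfect 6-base stem and a 4-base loop.
It was found in 32 of the 46 kept genes.
Annotated 3′ untranslated regions (3′ UTRs) fell into 3 groups, long (150 bases or more, 19 genes), short (17 genes) and none annotated (10 genes).
The stem-loop stood in 17 of the 19 long 3′ UTRs and in 15 of the 17 short ones, and the group without an annotated 3′ UTR held no sequence to search.
It began 22 to 55 bases after the stop codon (median 32).
Past it, the annotation ran on for 11 to 74 bases in the short group and for 38 to 4884 bases in the long group.
The core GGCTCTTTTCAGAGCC was the form in 19 genes, and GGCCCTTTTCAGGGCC and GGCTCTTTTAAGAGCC were the forms in 5 genes each.
The ends of genes that the results turn on follow, 5′ to 3′ in the sense of the RNA, from GENCODE M21 transcripts, with the stem-loop in capitals, first 5 with a short and then 4 with a long 3′ UTR.
Hist1h2ab: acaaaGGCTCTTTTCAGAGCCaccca
Hist1h2ag: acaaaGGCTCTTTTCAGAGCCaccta
Hist1h2bj: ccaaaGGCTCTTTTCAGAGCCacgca
Hist1h3c: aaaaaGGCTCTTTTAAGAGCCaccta
Hist1h4h: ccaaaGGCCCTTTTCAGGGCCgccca
Hist1h1c: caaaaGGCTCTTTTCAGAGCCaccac
Hist3h2a: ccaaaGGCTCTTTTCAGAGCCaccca
Hist1h2bg: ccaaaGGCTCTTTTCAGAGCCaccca
Hist1h4i: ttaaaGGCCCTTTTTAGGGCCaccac
The H4 genes differ from the others in the stem, and Hist1h2ab, with a short 3′ UTR, has the same stem-loop letters as Hist3h2a, with a long one.

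Promoters of this family were compared in 63 RefSeq windows of 250 bases before the start of 62 of the 68 genes (GRCm38.p6, 2 windows for Hist1h2be), by 3 motifs on both strands, and in 0 windows did hits of different motifs share a base.
The CCAAT box (CCAAT), bound by the factor NF-Y, was in 52 of the 63 windows (82.5%), against 33.8% of all 32851 promoter windows.
It was in each of the 18 H2A, 17 H2B and 6 H1 windows and in 3 of the 12 H4 windows. Windows of neighbouring H2A and H2B genes on opposite strands overlap in several pairs, such as Hist1h2ai with Hist1h2bl and Hist1h2ae with Hist1h2bg. A site of any of the 3 motifs in such an overlap was counted in both windows, so the windows are not all separate promoters.
A TATA box (TATAAA) was in 29 windows (46%), against 12.4% of all windows.
The octamer (ATTTGCAT), bound by Oct1, which Pou2f1 encodes, was in 14 windows (22.2%), 7 of H2A and 7 of H2B, against 1.6% of all windows.
Windows are shown for 3 genes that differ in these motifs and in the comparisons that follow, with the motifs in capitals, 5′ to 3′ towards the gene, Hist1h2bj at chr13:22042948-22043197 (+ strand), Hist1h2ab at chr13:23750838-23751087 (+ strand) and Hist1h4h at chr13:23530794-23531043 (+ strand).
Hist1h2bj: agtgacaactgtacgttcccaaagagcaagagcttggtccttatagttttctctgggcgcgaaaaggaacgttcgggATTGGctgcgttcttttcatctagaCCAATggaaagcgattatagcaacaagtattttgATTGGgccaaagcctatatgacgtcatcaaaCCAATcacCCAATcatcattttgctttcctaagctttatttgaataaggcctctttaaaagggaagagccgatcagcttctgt
Hist1h2ab: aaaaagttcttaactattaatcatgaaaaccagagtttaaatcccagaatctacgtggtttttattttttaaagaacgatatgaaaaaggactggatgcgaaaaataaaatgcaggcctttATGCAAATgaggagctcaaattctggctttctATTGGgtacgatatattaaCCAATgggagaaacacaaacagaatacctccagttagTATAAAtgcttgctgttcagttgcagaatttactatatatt
Hist1h4h: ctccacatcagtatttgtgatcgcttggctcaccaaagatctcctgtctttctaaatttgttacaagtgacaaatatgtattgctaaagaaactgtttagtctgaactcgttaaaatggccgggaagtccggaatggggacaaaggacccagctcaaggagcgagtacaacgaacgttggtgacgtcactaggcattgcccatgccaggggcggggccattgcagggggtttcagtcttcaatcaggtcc
Hist1h2bj has 5 CCAAT boxes in a stretch that is also, read on the other strand, the window of its neighbour Hist1h2ag (chr13:22042950-22043199).
Hist1h2ab has an octamer, 2 CCAAT boxes and a TATA box, and the Hist1h4h window holds none of the 3 motifs.

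Lmo2 and Ldb1 checked the labels. Lmo2 was at 32.6 ± 3.8 CPM in Lmo2tg DN2/3 cells, against 0.272 ± 0.105 CPM in wild-type DN2/3 cells, and Ldb1 was at 98.1 ± 26.9 CPM in Ldb1-KO DN2/3 cells, against 397 ± 58 CPM in Lmo2tg DN2/3 cells. Library totals ran from 28.1 to 106.9 M counts. The 7 thymocyte markers summed to 2928 CPM or more in every library, with Cd3e at 268.5 CPM or more. Cd4 was at 23.6 to 329 CPM in Ldb1-KO DN4, at 13.4 to 422 CPM in Lmo2tg DN4 and at 4.08 to 12 CPM in wild-type DN4 libraries, and groups are named by stage. Lmo2tg DN4 replicate 4 had the highest sum of histone RNA of all libraries, and results that rest on it are given without it too. Wild-type and transgenic libraries carry names of 2 different series, so library series and genotype cannot be told apart.

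Near-identical copies limit what can be said of single genes. Of the kept genes, 35 share at least 10% of their 101-base stretches (the read length) with other genes, 14 share over 50%, and the median is 31.4%. The sources used here do not say how the authors' counting treated reads that match several copies, and such reads could be dropped or given to one copy. Values of single genes among these 35 are therefore uncertain, and the shared percentage is given for most genes where they are described. For others named below it is 76.1% for Hist1h2ag, 70.7% for Hist1h2bk, 44.8% for Hist1h2bg and 32% for Hist1h3a. It is 25.3% for Hist1h2bc, 24.5% for Hist1h1e and 13.9% for Hist1h4c. Exons of 14 kept genes overlap another gene, 12 of them on the opposite strand, and the strand setting of the counting is unknown, so reads of such a pair could be counted for either gene. Hist2h2bb is wholly shared with overlapping genes, so its counts cannot be assigned to it.

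Rows that were not kept numbered 22, of which 6 had no count in any library. Several lie in pairs of near-identical copies: Hist1h2bq, Hist1h2br, Hist1h2ao, Hist1h2ap, Hist1h4m, Hist2h3c1, Hist2h3c2, Hist2h2aa1 and Hist2h2aa2 had 0 to 14 counts in all, and share 61.5 to 100% of their stretches. The testis histones Hist1h1t, Hist1h2aa and Hist1h2ba had 25, 2 and 4 counts over the 28 libraries. Just inside the threshold were Hist1h2bf, Hist2h2ac and Hist4h4 (5 libraries each) and Hist1h4f (6 libraries), and just outside it Hist1h4j, Hist2h3b and Hist3h2bb-ps (3 libraries each). No kept gene reached 0.5 CPM in libraries of a single group only, and 31 reached it in 20 or more libraries.

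Histone RNA was a small part of each library. The 68 rows summed to 114, 140.4, 95.8, 141 and 115 CPM in Ldb1-KO DN4, to 89.3, 147, 68.8, 216 and 141 CPM in Lmo2tg DN4 and to 108, 82.2, 113 and 101 CPM in wild-type DN4 libraries. They summed to 115, 131, 85.9, 162 and 109 CPM in Ldb1-KO DN2/3, to 83, 145, 94.7, 149.5 and 100.2 CPM in Lmo2tg DN2/3 and to 95.7, 85.1, 95.5 and 75.1 CPM in wild-type DN2/3 libraries. The Lmo2tg DN4 libraries spread the most, with replicate 4 highest and replicate 3 lowest of all 28. As sums of CPM, which grow with gene length and number, H2B rows were at 54.3 ± 9.86 CPM in Ldb1-KO DN4, 53.5 ± 15.1 CPM in Lmo2tg DN4 and 38.9 ± 3.96 CPM in wild-type DN4 cells, and H3 rows at 12.7 ± 2.65, 17 ± 13.7 and 12.7 ± 2.91 CPM in the same groups. The 11 histone genes outside the clusters that are expressed independently of replication, such as H3f3a and H2afz, summed with the same unit to 3595 ± 205 CPM in Ldb1-KO DN4, 3557 ± 575 CPM in Lmo2tg DN4 and 3503 ± 249 CPM in wild-type DN4 cells.

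Per kilobase of exon, the mean level in wild-type DN4 cells was highest for Hist1h4i, an H4 gene, at 23.1 CPM per kb, followed by Hist3h2ba at 10.6 and Hist1h2bj at 10.2 CPM per kb, both H2B genes, and Hist1h3c, an H3 gene, at 9.6 CPM per kb, and these last 3 differ by less than their SDs. In wild-type DN2/3 cells the same 4 were at 11.5, 12.3, 2.54 and 2.2 CPM per kb, and the means of the first 2 differ by less than their SD. Hist1h4i (chr13:22040636-22041362, 1 exon, - strand, 15% shared) has a long annotated 3′ UTR. In CPM it was at 14.2 ± 3.66 in Ldb1-KO DN4, 13 ± 8.35 in Lmo2tg DN4 and 16.8 ± 1.37 in wild-type DN4 cells, and at 8.55 ± 2.1 in Ldb1-KO DN2/3, 11.2 ± 3.4 in Lmo2tg DN2/3 and 8.38 ± 1.03 in wild-type DN2/3 cells. Of the H1 genes, Hist1h1c, which encodes H1.2, was at 6.78 ± 2.28 CPM in Ldb1-KO DN4, 8.19 ± 3.07 in Lmo2tg DN4 and 3.67 ± 0.72 in wild-type DN4 cells (4.35, 5.25 and 2.35 CPM per kb), while Hist1h1b, which encodes H1.5, was at 1.39 ± 0.532, 0.908 ± 0.53 and 1.02 ± 0.708 CPM (1.87, 1.22 and 1.37 CPM per kb) in the same groups.

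**Figure D1:**
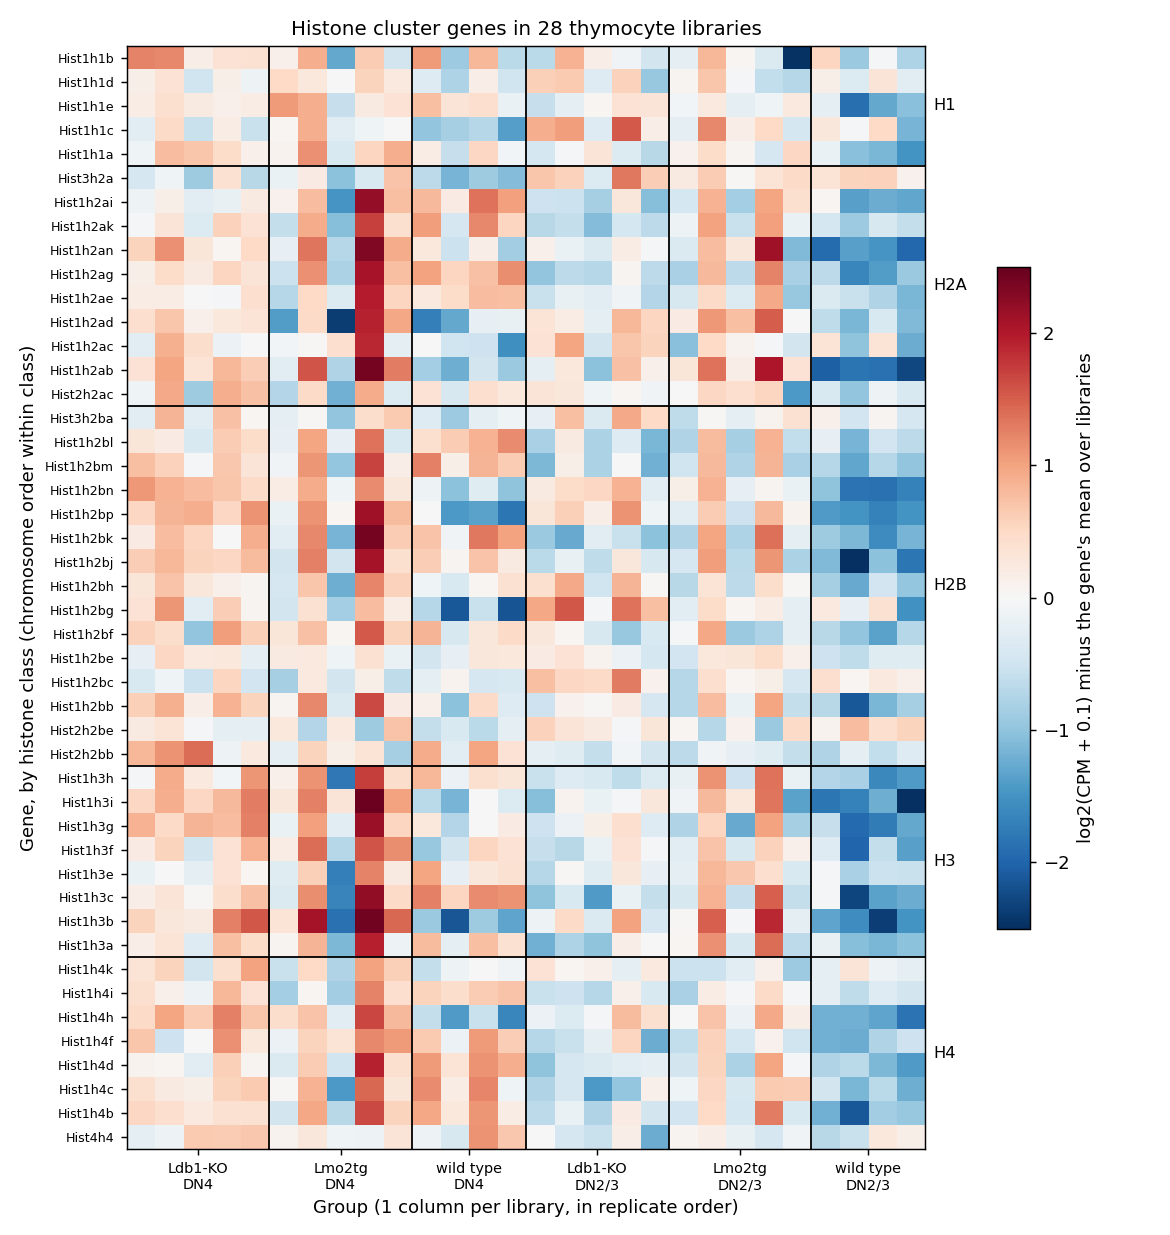
Heat map of the 46 kept histone genes (rows, by histone class and in chromosome order within a class) in the 28 libraries (columns, grouped by stage and genotype), with colour for log2(CPM + 0.1) minus the gene's mean over the libraries. Many rows of H2A, H2B, H3 and H4 genes are blue (below the gene's mean) in the wild-type DN2/3 libraries, and the column of Lmo2tg DN4 replicate 4 is red (above it) in many rows.

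The first comparison sets Lmo2tg against wild-type cells at each stage, groups that also differ in library series. Every histone gene called at DN2/3 was higher in Lmo2tg. In Lmo2tg against wild-type DN2/3 cells, 22 of the 46 genes were called higher and 0 lower at an adjusted p below 0.05, while 15.1% of all 14371 genes tested were called higher and 14.4% lower. The 22 are 47.8% of the kept genes, above the share of all genes called higher. At an unadjusted p below 0.05, 30 genes were higher and 1 was lower by edgeR, and DESeq2 called 25 higher and 0 lower. The median log2 fold of the 46 genes was 1.25, against 0.01 for all genes. Calls were in every class, 2 of 5 in H1, 4 of 10 in H2A, 6 of 15 in H2B, 6 of 8 in H3 and 4 of 8 in H4. By 3′ UTR, they were 12 of 17 short, 4 of 10 with none annotated and 6 of 19 long. Summed, the short genes were at 27.2 ± 16.5 CPM in Lmo2tg and 8.14 ± 2.7 CPM in wild-type DN2/3 cells. The long ones, with most of the histone RNA, were at 77.1 ± 11.9 and 74.6 ± 8.1 CPM. By copies, they were 20 of the 35 genes with at least 10% shared stretches and 2 of the 11 with less. The 2 of 11 lie near the 15.1% of all genes called higher. Most calls were thus of genes with shared stretches, whose single values are uncertain and may not be separate measurements. Most of the 11 genes with less sharing have a long 3′ UTR, such as Hist2h2be and Hist1h1c. Copy sharing and 3′ UTR group therefore cannot be fully told apart in these counts. In bulk samples such as these, fewer cells with a transcript and less RNA per cell cannot be told apart.

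Among linker histones, Hist1h1e, which encodes H1.4, was at 0.606, 0.778, 0.522, 0.591 and 0.782 CPM in the Lmo2tg DN2/3 libraries, against 0.527, 0.101, 0.206 and 0.259 CPM in the wild-type DN2/3 libraries (log2 fold 1.25, SE 0.38, adjusted p = 0.0134). The groups overlapped, and the gene's exons overlap those of Hist1h2be on the same strand. Hist1h1a, with 0% shared stretches, had a similar difference (log2 fold 1.25, SE 0.38, adjusted p = 0.0139). Hist1h1e lost its call without wild-type DN2/3 replicate 2 or 3 and Hist1h1a without wild-type DN2/3 replicate 4, the adjusted p over the left-out libraries running from 0.00142 to 0.0586 for Hist1h1e and from 0.00243 to 0.0624 for Hist1h1a. Hist1h1c was at 9.28 ± 4.54 CPM in Lmo2tg and 7.28 ± 3.03 CPM in wild-type DN2/3 cells and was not called (log2 fold 0.35, SE 0.37, adjusted p = 0.524).

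Hist1h2ab, an H2A gene (chr13:23751126-23751598, 1 exon, + strand, 52.3% shared), had the smallest adjusted p of all kept genes. It was at 1.69, 3.6, 1.52, 5.71 and 1.75 CPM in the Lmo2tg DN2/3 libraries, against 0.249, 0.304, 0.297 and 0.197 CPM in the wild-type DN2/3 libraries (log2 fold 3.44, SE 0.56, adjusted p = 3.39e-05). Every Lmo2tg library lay above every wild-type one. Hist1h2an, another H2A gene, was at 0.369, 0.922, 0.632, 2.49 and 0.181 CPM in Lmo2tg DN2/3, against 0.0585, 0.135, 0.114 and 0.0536 CPM in wild-type DN2/3 libraries (log2 fold 3.32, SE 0.68, adjusted p = 0.000522), but 83.3% of its stretches are shared. Hist3h2a did not pass the test, at 13.5 ± 2.15 CPM in Lmo2tg and 14 ± 2.04 CPM in wild-type DN2/3 cells (log2 fold -0.06, SE 0.29, adjusted p = 0.915).

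The H2B gene Hist1h2bn (chr13:21754123-21754503, 1 exon, + strand, 51.2% shared) was at 0.764, 1.33, 0.577, 0.722 and 0.602 CPM in the Lmo2tg DN2/3 libraries, against 0.293, 0.118, 0.114 and 0.143 CPM in the wild-type DN2/3 libraries (log2 fold 2.26, SE 0.38, adjusted p = 6.12e-05). The groups did not overlap, with Lmo2tg replicate 2 and wild-type replicate 1 each the high one of its group. Hist1h2bj, whose shared promoter stretch is shown above, was at 2.58, 7.26, 2.16, 7.61 and 1.99 CPM in Lmo2tg DN2/3, against 1.58, 0.541, 1.66 and 0.93 CPM in wild-type DN2/3 libraries (log2 fold 1.87, SE 0.49, adjusted p = 0.00446), and its partner Hist1h2ag was at 1.92 ± 1.42 CPM in Lmo2tg and 0.701 ± 0.245 CPM in wild-type cells (log2 fold 1.44, SE 0.5, adjusted p = 0.0307). Replicates 2 and 4 were the highest of the Lmo2tg DN2/3 libraries for Hist1h2bj. Hist1h2bp gave a log2 fold of 2.35 (SE 0.53, adjusted p = 0.00124). Hist2h2be was at 13.3 ± 5.14 CPM in Lmo2tg and 19.9 ± 3.87 CPM in wild-type DN2/3 cells and was not called (log2 fold -0.59, SE 0.27, adjusted p = 0.11), nor was Hist3h2ba, at 8.15 ± 2.1 and 7.55 ± 1.67 CPM (log2 fold 0.11, SE 0.32, adjusted p = 0.84).

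Among H3 genes, 6 of 8 were called. Hist1h3i was at 0.711, 1.41, 0.934, 2.1 and 0.241 CPM in the Lmo2tg DN2/3 libraries, against 0.146, 0.169, 0.274 and 0.0536 CPM in the wild-type DN2/3 libraries (log2 fold 2.74, SE 0.56, adjusted p = 0.000526), with an overlap of the groups. Hist1h3b was at 0.606, 1.84, 0.577, 2.43 and 0.482 CPM in Lmo2tg, against 0.176, 0.135, 0.0343 and 0.143 CPM in wild-type libraries (log2 fold 3.26, SE 0.75, adjusted p = 0.00158), and no Lmo2tg library lay in the wild-type range. These are 68.2% and 56.5% shared with other H3 genes. Hist1h3c was at 3.89 ± 2.82 CPM in Lmo2tg and 1.39 ± 0.991 CPM in wild-type DN2/3 cells, a difference that was not called (log2 fold 1.48, SE 0.57, adjusted p = 0.0538). Among H4 genes, Hist1h4h (chr13:23531050-23531519, 1 exon, + strand, 38.4% shared) was at 1.4, 2.33, 1.24, 2.76 and 1.56 CPM in the Lmo2tg DN2/3 libraries, against 0.541, 0.541, 0.491 and 0.313 CPM in the wild-type DN2/3 libraries (log2 fold 1.98, SE 0.38, adjusted p = 0.000242). Its groups did not overlap. Hist1h4d, none of whose stretches is shared, was at 1.51 ± 0.812 CPM in Lmo2tg and 0.621 ± 0.162 CPM in wild-type DN2/3 cells (log2 fold 1.27, SE 0.43, adjusted p = 0.0258), and leaving out Lmo2tg replicate 2 or 4 or wild-type replicate 3 or 4 of that stage ended the call. Hist1h4i did not pass (log2 fold 0.42, SE 0.31, adjusted p = 0.341).

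Of 28 S-phase genes, such as Mcm7, Pcna and Rrm2, edgeR called 0 higher and 0 lower in Lmo2tg against wild-type DN2/3 cells (1 higher and 0 lower at an unadjusted p below 0.05), and their sums were 5077, 9608, 6398, 9276 and 5315 CPM in the Lmo2tg DN2/3 libraries, against 7279.6, 6249, 6422 and 6353 CPM in the wild-type DN2/3 libraries. Lmo2tg replicates 2 and 4, which were highest in histone RNA, were also highest in this sum. Of 18 mitotic genes, 3 were called higher and 0 lower, among them the cyclin Ccnb1 at 96 ± 40.7 CPM in Lmo2tg and 49.4 ± 3.93 CPM in wild-type DN2/3 cells (log2 fold 0.96, SE 0.28, adjusted p = 0.0116). All 7 thymocyte markers were called lower in Lmo2tg DN2/3 cells, and Cd8a was at 25.6 to 92.7 CPM there, against 0.473 to 1.26 CPM in wild-type DN2/3 libraries. RNAs that carry no poly(A) tail outside the histone clusters, such as Rpph1 and Rmrp, summed to 4.19 ± 0.395 CPM in Lmo2tg and 5.84 ± 2.07 CPM in wild-type DN2/3 cells, with 0 of 7 tested called in either direction by edgeR (0 higher and 2 lower at an unadjusted p below 0.05). The part of cell mixture, cycling and RNA without a tail in the histone result was not tested. The count also rested on few libraries: it was 12 without wild-type DN2/3 replicate 3, 13 without wild-type replicate 2 or 4 or Lmo2tg DN2/3 replicate 2 or 4, and 24 without Lmo2tg DN4 replicate 4.

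In Lmo2tg against wild-type DN4 cells, 11 genes were called higher and 0 lower, while 28.9% of all genes were called higher and 23.5% lower. The 11 are 23.9% of the kept genes, a smaller share than that of all genes called higher, so the count by itself is no result about histone genes. The unadjusted p was below 0.05 for 13 higher and 0 lower genes by edgeR, DESeq2 called 12 higher and 0 lower, and the median log2 fold was 0.40, against 0.07 for all genes. Without Lmo2tg DN4 replicate 4, 10 genes were called higher and 1 lower. Here 5 of the 19 genes with long 3′ UTRs were called, against 3 of 17 short and 3 of 10 with none.

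Hist1h4h was at 1.9, 2.33, 1.11, 4.64 and 2.49 CPM in the Lmo2tg DN4 libraries, against 0.879, 0.458, 0.904 and 0.38 CPM in the wild-type DN4 libraries (log2 fold 1.93, SE 0.37, adjusted p = 0.000186), with no overlap. Hist1h3b was at 0.772, 2.8, 0.0891, 3.54 and 1.76 CPM in Lmo2tg DN4, against 0.264, 0.0572, 0.27 and 0.177 CPM in wild-type DN4 libraries (log2 fold 3.21, SE 0.74, adjusted p = 0.000906), and Lmo2tg replicate 4 was the highest. Hist1h2ab was at 1.09, 4.18, 0.757, 7.47 and 3.4 CPM in Lmo2tg DN4, against 0.703, 0.515, 0.951 and 0.659 CPM in wild-type DN4 libraries (log2 fold 2.25, SE 0.52, adjusted p = 0.00097). Both genes had Lmo2tg replicate 3 within the wild-type range and the other Lmo2tg libraries above it. Hist1h2bp had a log2 fold of 2.38 (SE 0.51, adjusted p = 0.000523), with 1.24 ± 0.925 CPM in Lmo2tg and 0.237 ± 0.215 CPM in wild-type DN4 cells. The linker gene Hist1h1c was called at this stage, at 7.45, 13.6, 6.01, 6.65 and 7.23 CPM in Lmo2tg DN4, against 3.6, 4, 4.38 and 2.7 CPM in wild-type DN4 libraries (log2 fold 1.16, SE 0.38, adjusted p = 0.0133), and Lmo2tg replicate 2 was the highest. Hist3h2a was at 9.33, 12.2, 5.14, 8.11 and 17.3 CPM in Lmo2tg DN4, against 6.61, 4.66, 5.66 and 4.92 CPM in wild-type DN4 libraries (log2 fold 0.93, SE 0.3, adjusted p = 0.0114), a call lost without Lmo2tg DN4 replicate 5. Both have long 3′ UTRs, and of the genes named at DN2/3, Hist1h2bj (log2 fold 0.48, SE 0.46, adjusted p = 0.388) and Hist1h4d (log2 fold -0.19, SE 0.41, adjusted p = 0.721) did not pass.

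Replication genes went the other way at DN4: 26 of the 28 S-phase genes and 14 of the 18 mitotic genes were called lower in Lmo2tg DN4 cells, and none of either list higher. S-phase sums were 4028, 9374, 5849, 11684 and 6522 CPM in the Lmo2tg DN4 libraries, against 13124, 11690.0, 13143 and 12166 CPM in the wild-type DN4 libraries. Tyms, thymidylate synthase, was at 109 ± 38.3 CPM in Lmo2tg and 239.9 ± 29.8 CPM in wild-type DN4 cells (log2 fold -1.14, SE 0.21, adjusted p = 0.000103). Lmo2tg DN4 replicate 4, with the most histone RNA, also had the highest S-phase sum of its group. Markers of other cells moved too: Cd4, Cd8a and Cd8b1, markers of later thymocytes, summed to 619 ± 502 CPM in Lmo2tg and 159.8 ± 46 CPM in wild-type DN4 cells, with 2 of 3 called higher. Of the B-cell markers Cd79a, Ms4a1 and Pax5 all 3 were called higher, with sums of 40.4, 2.11, 8.53, 1.68 and 12.6 CPM in the Lmo2tg DN4 libraries, against 0.22, 0.486, 0.285 and 0.304 CPM in the wild-type DN4 libraries, where Pax5 was at 0 in all 4 and Ms4a1 in 3. No Lmo2tg DN4 library fell into the wild-type range of this sum, and replicate 1, not replicate 4, was the highest. Of 4 myeloid markers 3 were called higher, and their sums were 13.1 to 26.7 CPM in Lmo2tg and 7.74 to 9.05 CPM in wild-type DN4 libraries, while Hbb-bs was at 0 in all 28 libraries. The part of these shifts in the histone result was not tested.

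**Figure D2:**
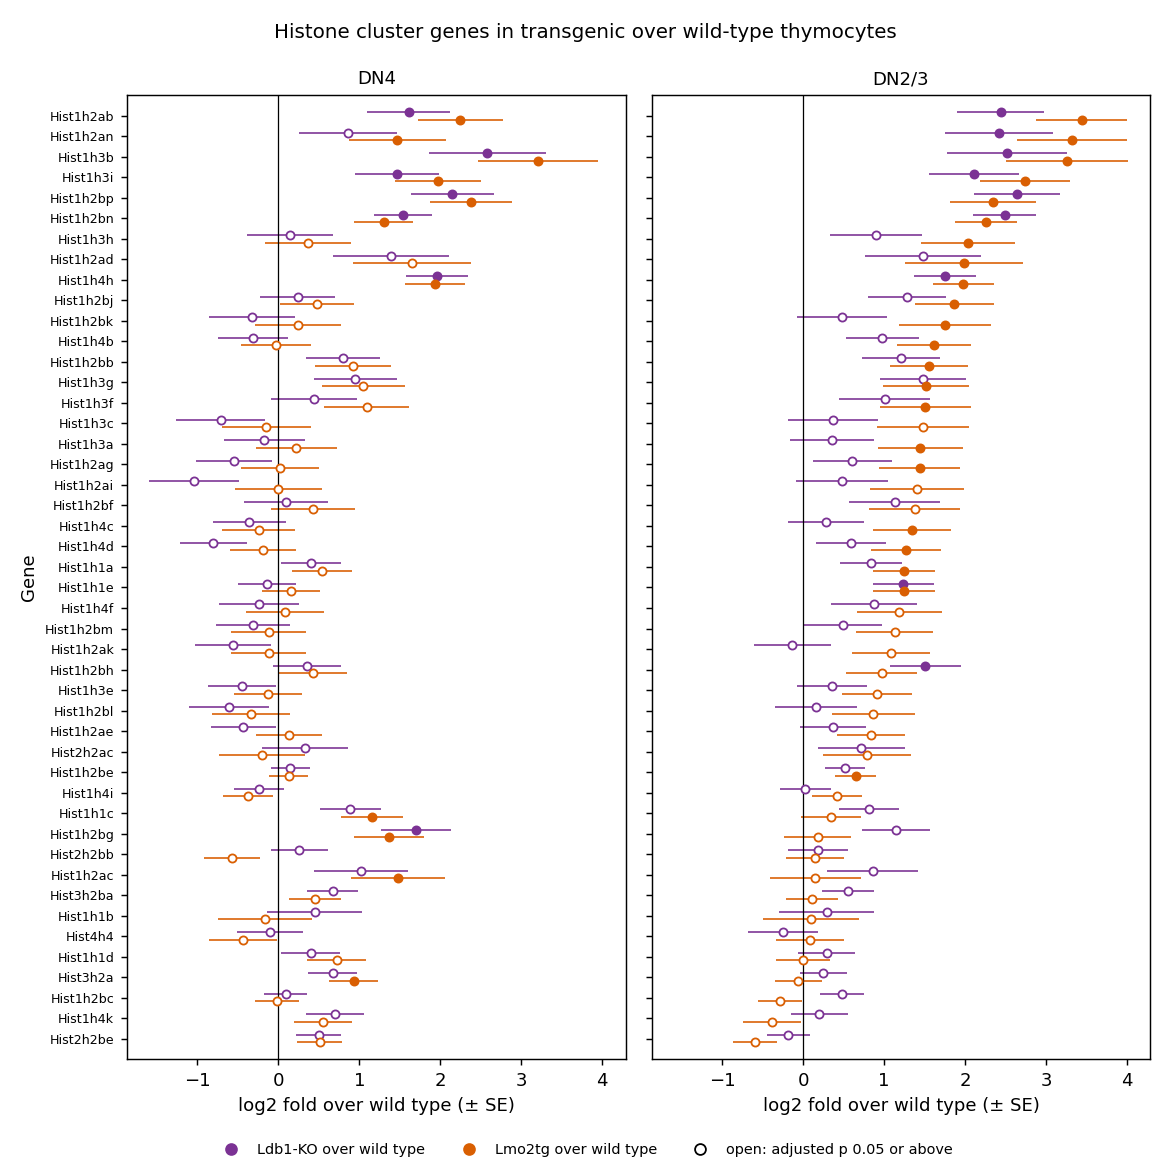
Log2 folds with SE (x axis) of the 46 kept genes (rows) in Ldb1-KO and Lmo2tg over wild type, at DN4 (left) and DN2/3 (right), with filled points for an adjusted p below 0.05. At DN2/3 most points of Lmo2tg lie above 0 (median 1.25), with 22 filled, and those of Ldb1-KO have a median of 0.66, with 9 filled.

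The second comparison asks what the deletion of Ldb1 did in cells that carry the transgene. In Ldb1-KO against Lmo2tg DN2/3 cells, 1 gene was called higher and 0 lower, while 8.87% of all genes were called higher and 7.22% lower. By unadjusted p below 0.05, 2 genes were higher and 7 lower in edgeR, and DESeq2 called 1 higher and 1 lower. The median log2 fold was -0.37, against -0.01 for all genes. The called gene was Hist1h2bc, an H2B gene with a long 3′ UTR (chr13:23684199-23692908), at 10.7, 9.14, 8.88, 15.6 and 6.86 CPM in the Ldb1-KO DN2/3 libraries, against 3.82, 8.43, 6.5, 6.96 and 4.69 CPM in the Lmo2tg DN2/3 libraries (log2 fold 0.75, SE 0.25, adjusted p = 0.0431). Its groups overlapped, and the call was lost without any one of 11 libraries, the adjusted p running from 0.0213 to 0.142. Genes with a short 3′ UTR had a median log2 fold of -0.59 and those with a long one of 0.29, with no other call in either group. Hist1h2ab, the top gene against wild type, was at 1.43 ± 0.623 CPM in Ldb1-KO and 2.85 ± 1.81 CPM in Lmo2tg DN2/3 cells (log2 fold -1.0, SE 0.46, adjusted p = 0.154), and Hist1h3c was at 1.79 ± 0.614 and 3.89 ± 2.82 CPM (log2 fold -1.11, SE 0.53, adjusted p = 0.167). With replicate numbers as a block within the transgenic series, 2 genes were higher and 4 lower, although the numbers pair these groups only partly. The shares of all genes called in that fit are not given here, so its counts are read as no result about histone genes. Of the 7 thymocyte markers 4 were called higher and 0 lower in this comparison, whose part in it was not tested.

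In Ldb1-KO against Lmo2tg DN4 cells, 0 genes were called in either direction by edgeR, with 1 higher and 0 lower at an unadjusted p below 0.05 and 0 called by DESeq2, while 5.85% of all genes were called higher and 8.71% lower. The median log2 fold was -0.26, against -0.02 for all genes. Ldb1 itself was at 25.7 ± 19.3 CPM in Ldb1-KO and 345 ± 72.2 CPM in Lmo2tg DN4 cells (log2 fold -3.75, SE 0.37, adjusted p = 1.53e-07). Hist1h2bj was at 5.41, 6.32, 5.17, 5.07 and 6.1 CPM in Ldb1-KO DN4, against 2.51, 8.44, 2.52, 15.1 and 4.62 CPM in Lmo2tg DN4 libraries (log2 fold -0.24, SE 0.43, adjusted p = 0.789), and the Ldb1-KO values lay inside the range of the Lmo2tg ones. Of the 28 S-phase genes 5 were called higher and 0 lower in Ldb1-KO DN4 cells, among them Rrm2, a ribonucleotide reductase subunit, at 724 ± 41.4 CPM in Ldb1-KO and 387 ± 124 CPM in Lmo2tg DN4 cells (log2 fold 0.9, SE 0.2, adjusted p = 0.00254). Of the 3 B-cell markers 2 were called lower and 0 higher, with sums of 1.06 to 3.99 CPM in the Ldb1-KO and 1.68 to 40.4 CPM in the Lmo2tg DN4 libraries. The part of either list in the histone values was not tested.

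Ldb1-KO cells, which carry both changes, were also set against wild type. At DN2/3, 9 genes were called higher and 0 lower (19.6% of the kept genes), while 6.98% of all genes were called higher and 2.58% lower. By unadjusted p below 0.05, 17 genes were higher and 0 lower in edgeR, DESeq2 called 12 higher and 0 lower, and the median log2 fold was 0.66, against -0.01 for all genes. The count was 4 without wild-type DN2/3 replicate 4, 5 without wild-type replicate 1 and 11 without Lmo2tg DN4 replicate 4. At DN4, 7 genes were called higher and 0 lower (15.2%), while 18.2% of all genes were called higher and 14.4% lower, so the count lies under that of all genes. There, 10 genes were higher and 0 lower at an unadjusted p below 0.05 in edgeR, DESeq2 called 8 higher and 0 lower, and the median log2 fold was 0.29, against 0.03 for all genes. A fit on the Ldb1-KO and wild-type DN4 libraries alone called 12 higher and 4 lower. The shares of all genes called in this smaller fit are not given here, so these counts cannot be set against the percentages above. Markers of other cells moved here as well. At DN2/3 all 3 later-thymocyte markers were called higher, with sums of 57.1 ± 8.73 CPM in Ldb1-KO and 4.51 ± 1.47 CPM in wild-type cells, 2 of 4 myeloid and 2 of 18 mitotic genes were called higher, and 4 of 7 thymocyte markers lower. At DN4 all 3 later-thymocyte markers were called higher, with sums of 687 ± 462 CPM in Ldb1-KO and 159.8 ± 46 CPM in wild-type cells. All 3 B-cell markers were called higher there too, with sums of 1.06 to 3.99 CPM in the Ldb1-KO and 0.22 to 0.486 CPM in the wild-type DN4 libraries. In the same comparison 2 of 4 myeloid markers were called higher and 2 of 28 S-phase genes lower, and the part of these lists in the histone counts was not tested.

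Hist1h2bn led at DN2/3, at 0.813, 0.974, 1.02, 1.33 and 0.549 CPM in the Ldb1-KO libraries, against 0.293, 0.118, 0.114 and 0.143 CPM in the wild-type libraries (log2 fold 2.49, SE 0.39, adjusted p = 8.26e-05). For DN4 the gene was at 1.56, 1.34, 1.24, 1.17 and 0.997 CPM in Ldb1-KO, against 0.615, 0.286, 0.539 and 0.292 CPM in wild-type libraries (log2 fold 1.54, SE 0.36, adjusted p = 0.00326). Neither pair of groups overlapped. Hist1h4h was at 1.24, 1.07, 1.34, 2.47 and 1.85 CPM in Ldb1-KO DN2/3 libraries (log2 fold 1.75, SE 0.38, adjusted p = 0.00309) and at 1.96, 2.85, 2.22, 3.44 and 2.3 CPM in Ldb1-KO DN4 libraries (log2 fold 1.96, SE 0.38, adjusted p = 0.000643), above every wild-type library of the same stage. Hist1h2bg, an H2B gene with a long 3′ UTR, was called at DN4, at 5.9, 10.01, 3.76, 7.08 and 4.8 CPM in Ldb1-KO, against 2.75, 0.972, 3.09 and 0.951 CPM in wild-type libraries (log2 fold 1.7, SE 0.43, adjusted p = 0.00536), and these groups did not overlap.

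A set of 6 genes, Hist1h2ab, Hist1h2bn, Hist1h2bp, Hist1h3b, Hist1h3i and Hist1h4h, was called higher in each of the 4 comparisons of a transgenic group with wild type. The comparisons at 1 stage share their wild-type libraries, so they are no independent repeats, and the set was named after its values were seen. How many of all genes tested were called higher in all 4 was not counted, so the 6 are read as no result about histone genes. Several of the Ldb1-KO calls ended with 1 library left out: those of Hist1h3b at DN2/3 without any one of the 4 wild-type libraries or Ldb1-KO replicate 2 or 4, and of Hist1h3i at DN2/3 without wild-type replicate 1 or 4. At DN4 the call of Hist1h3i ended without wild-type replicate 1, 2 or 4 or Ldb1-KO replicate 2 or 5, and that of Hist1h2ab without wild-type replicate 2. For Hist1h2ab the log2 folds were 2.44 and 3.44 in Ldb1-KO and Lmo2tg DN2/3 cells and 1.61 and 2.25 in Ldb1-KO and Lmo2tg DN4 cells, each against wild type. In the same order they were 2.49, 2.26, 1.54 and 1.3 for Hist1h2bn, and 2.64, 2.35, 2.15 and 2.38 for Hist1h2bp. They were 2.52, 3.26, 2.58 and 3.21 for Hist1h3b, and 2.11, 2.74, 1.47 and 1.97 for Hist1h3i. For Hist1h4h they were 1.75, 1.98, 1.96 and 1.93, the narrowest range of the 6. All 6 lie on chromosome 13, they belong to 4 histone classes, and between 30.9% (Hist1h2bp) and 68.2% (Hist1h3i) of their stretches are shared with other genes, so single copies cannot be told apart with certainty.

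**Figure D3:**
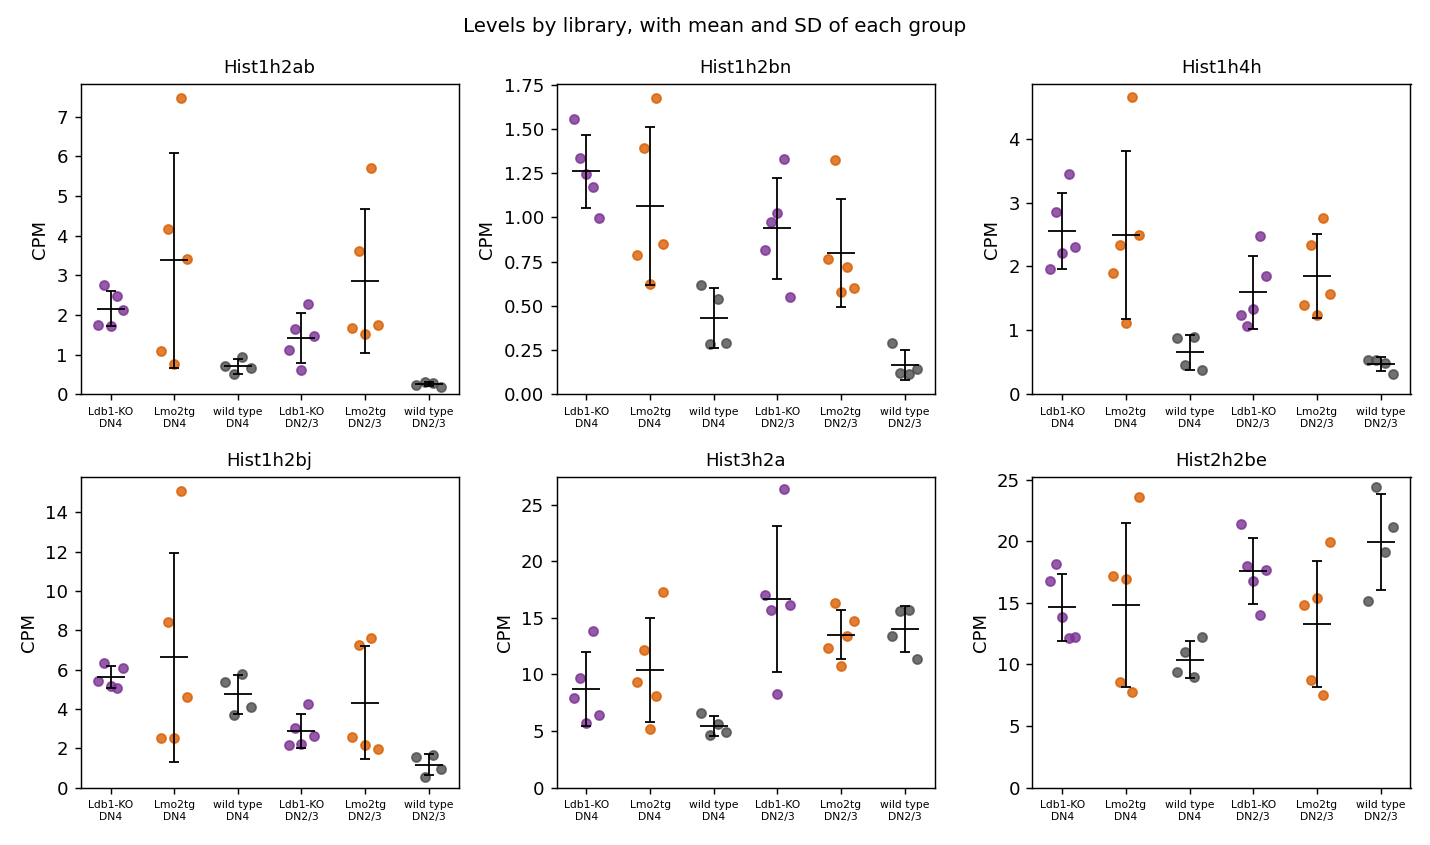
CPM (y axis) of 6 histone genes in each library (points), with the group mean and SD as lines, for Ldb1-KO, Lmo2tg and wild type at DN4 and at DN2/3. At each stage the mean of wild type is the lowest of the 3 for Hist1h2ab, Hist1h2bn and Hist1h4h, and for Hist3h2a and Hist2h2be it is lower in wild-type DN4 than in wild-type DN2/3 cells.

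The stages were compared within each genotype. In wild type, most histone genes with a short 3′ UTR were higher at DN4 than at DN2/3, and a few with a long one were lower. In wild-type DN4 against DN2/3 cells, 26 genes were called higher and 4 lower, while 21.1% of all genes were called higher and 24.8% lower. The 26 are 56.5% of the kept genes. Replicate numbers pair the stages within a genotype, and with them as a block 29 genes were called higher and 5 lower, while 28.6% of all genes were called higher and 33.5% lower. The median log2 fold was 1.24, against -0.06 for all genes, and DESeq2 called 28 higher and 4 lower. By 3′ UTR, 13 of 17 short genes and 8 of 10 with none annotated were called higher and 0 lower, and of the 19 long ones 5 were called higher and 4 lower. Most genes with a short or no annotated 3′ UTR share at least 10% of their stretches with other genes. The split by 3′ UTR thus cannot be fully told apart from one by copy sharing. Summed over the genes of a group, the short ones were at 32.5, 18.7, 33.3 and 27.5 CPM in the wild-type DN4 libraries, against 11.8, 5.27, 7.99 and 7.51 CPM in the wild-type DN2/3 libraries, and the long ones at 63.9, 56.2, 66.1 and 63.7 CPM, against 77.1, 75.3, 82.5 and 63.3 CPM. Sums of short genes did not overlap between the stages. By class, 2 genes were called higher and 1 lower of 5 in H1, 6 and 1 of 10 in H2A, 8 and 2 of 15 in H2B, 5 and 0 of 8 in H3 and 5 and 0 of 8 in H4.

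Hist1h4d, an H4 gene with no shared stretches (chr13:23581598-23582735, + strand), had the smallest adjusted p, at 2.84, 1.69, 2.95 and 2.54 CPM in the wild-type DN4 libraries, against 0.732, 0.777, 0.548 and 0.429 CPM in the wild-type DN2/3 libraries (log2 fold 2.01, SE 0.45, adjusted p = 0.000824, and log2 fold 2.02, SE 0.26, adjusted p = 5.18e-06 with the block). It is one of the 5 long genes that rose. The divergent pair Hist1h2ag and Hist1h2bj rose by like amounts, Hist1h2ag being at 3.34, 2.37, 2.76 and 3.75 CPM in DN4, against 0.995, 0.456, 0.548 and 0.805 CPM in DN2/3 libraries of the wild type (log2 fold 2.12, SE 0.53, adjusted p = 0.002). Hist1h2bj (chr13:22043214-22043676, 1 exon, + strand, 39.7% shared) was at 5.39, 3.69, 5.77 and 4.11 CPM in DN4, against 1.58, 0.541, 1.66 and 0.93 CPM in DN2/3 libraries (log2 fold 2.01, SE 0.5, adjusted p = 0.00219). No wild-type DN4 library of either gene fell into the DN2/3 range. Hist1h3c (chr13:23744973-23745602, 1 exon, - strand, 28.1% shared) was at 7, 4.2, 6.63 and 6.36 CPM in DN4, against 2.81, 0.507, 1.07 and 1.16 CPM in DN2/3 libraries (log2 fold 2.12, SE 0.6, adjusted p = 0.00592). Among linker genes, Hist1h1e was at 0.854 ± 0.24 CPM in DN4 and 0.273 ± 0.181 CPM in DN2/3 cells (log2 fold 1.63, SE 0.39, adjusted p = 0.00155). Hist1h4i, with the most RNA per length, was at 16.5, 15, 17.5 and 18.2 CPM in DN4, against 9.48, 7.09, 8.86 and 8.09 CPM in DN2/3 libraries (log2 fold 1.0, SE 0.33, adjusted p = 0.0152).

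Those that fell have long 3′ UTRs. Hist3h2a (chr11:58954685-58956830, 1 exon, + strand, 29.8% shared, its exons overlapping Trim17 on the same strand) was at 6.61, 4.66, 5.66 and 4.92 CPM in the wild-type DN4 libraries, against 13.4, 15.6, 15.7 and 11.4 CPM in the wild-type DN2/3 libraries (log2 fold -1.36, SE 0.31, adjusted p = 0.00102). Hist2h2be (chr3:96221119-96223738, + strand, 0% shared) was at 9.4, 11, 8.94 and 12.2 CPM in DN4, against 15.1, 24.4, 19.1 and 21.1 CPM in DN2/3 libraries (log2 fold -0.94, SE 0.29, adjusted p = 0.0103). Stages did not overlap for either. Hist1h2bg gave 1.94 ± 1.14 CPM in DN4 and 4.23 ± 1.98 CPM in DN2/3 cells (log2 fold -1.12, SE 0.44, adjusted p = 0.0386), and Hist1h1c gave 3.67 ± 0.72 and 7.28 ± 3.03 CPM (log2 fold -0.99, SE 0.39, adjusted p = 0.0427). These last calls ended without any one of 6 libraries for Hist1h2bg and of 8 for Hist1h1c, and both held with the block within genotype (adjusted p = 0.000394 and 0.0019). With no filter on low counts neither was called, and Hist1h2bg was also not called with a block on the replicate number across all groups or in a fit of the compared groups only. Hist1h2bc was called lower with the block only (log2 fold -0.46, SE 0.14, adjusted p = 0.00865, against log2 fold -0.45, SE 0.28, adjusted p = 0.201 without it).

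Replication genes rose over the same step in wild type, 26 of 28 S-phase and 18 of 18 mitotic genes being called higher and 0 lower. S-phase sums were 12531 ± 722 CPM in wild-type DN4 and 6576 ± 474 CPM in wild-type DN2/3 cells. RNAs without a tail summed to 8.98 ± 1.54 CPM in DN4 and 5.84 ± 2.07 CPM in DN2/3 cells, with 1 of 7 called higher. Later-thymocyte markers summed to 159.8 ± 46 CPM in DN4 and 4.51 ± 1.47 CPM in DN2/3 cells. The part of these in the histone change was not tested.

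In Lmo2tg DN4 against DN2/3 cells, 0 histone genes were called in either direction by edgeR, with 3 higher and 0 lower at an unadjusted p below 0.05 and 0 called by DESeq2, while 8.32% of all genes were called higher and 7.04% lower. The median log2 fold was 0.42, against 0.00 for all genes. With the replicate block, 2 genes were called higher and 1 lower, while 18.6% of all genes were called higher and 20.1% lower. Hist1h2bj was at 2.51, 8.44, 2.52, 15.1 and 4.62 CPM in the Lmo2tg DN4 libraries, against 2.58, 7.26, 2.16, 7.61 and 1.99 CPM in the Lmo2tg DN2/3 libraries (log2 fold 0.62, SE 0.43, adjusted p = 0.36), and Hist3h2a at 9.33, 12.2, 5.14, 8.11 and 17.3 CPM in DN4, against 12.3, 16.3, 10.7, 13.4 and 14.7 CPM in DN2/3 libraries (log2 fold -0.38, SE 0.27, adjusted p = 0.383). The stages overlapped for both genes. Short genes summed to 17.5, 46.9, 11.3, 85.2 and 31.9 CPM in Lmo2tg DN4, against 16.2, 39.7, 15.1, 50.1 and 15 CPM in Lmo2tg DN2/3 libraries, and the DN4 values ran wider than those of any other group. Of the S-phase genes 1 of 28 was called higher in this comparison, and edgeR called 0 of 18 mitotic genes (2 higher and 0 lower at an unadjusted p below 0.05). All 3 later-thymocyte and all 3 B-cell markers were called higher at DN4, and their part in the histone values was not tested.

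In Ldb1-KO DN4 against DN2/3 cells, 3 genes were called higher and 2 lower, while 12.3% of all genes were called higher and 15.8% lower. With the replicate block, 21 were called higher and 5 lower, while 22.5% of all genes were called higher and 25.7% lower. The median log2 fold was 0.69 in both fits, against -0.02 for all genes, so the fits differ in their counts and not in this median. Short genes summed to 27.8, 32.4, 25.2, 33.2 and 33.5 CPM in Ldb1-KO DN4, against 12.9, 17.4, 13.5, 24.2 and 15.5 CPM in Ldb1-KO DN2/3 libraries, and the stages did not overlap. Hist1h2bk, an H2B gene with a short 3′ UTR, was at 1.42, 2.15, 1.81, 1.23 and 2.37 CPM in Ldb1-KO DN4, against 0.599, 0.452, 1.01, 0.797 and 0.549 CPM in Ldb1-KO DN2/3 libraries (log2 fold 1.4, SE 0.52, adjusted p = 0.0475, and log2 fold 1.4, SE 0.31, adjusted p = 0.00154 with the block). Hist1h4c was at 0.981, 0.852, 0.806, 1.1 and 1.18 CPM in DN4, against 0.385, 0.508, 0.201, 0.319 and 0.789 CPM in DN2/3 libraries (log2 fold 1.18, SE 0.45, adjusted p = 0.0499), and Hist2h2bb, whose counts cannot be assigned, was the other gene called higher (log2 fold 1.32, SE 0.34, adjusted p = 0.00525). Without the block, the call of Hist1h2bk ended when any one of 17 libraries was left out and that of Hist1h4c when any one of 22 was, and both ended with no filter on low counts. Hist3h2a fell, to 7.88, 9.71, 5.67, 13.8 and 6.45 CPM in Ldb1-KO DN4, against 17, 15.7, 8.27, 26.4 and 16.2 CPM in Ldb1-KO DN2/3 libraries (log2 fold -0.94, SE 0.28, adjusted p = 0.0127), as did Hist1h2bc, at 4.83, 5.88, 4.33, 9.22 and 4.52 CPM in DN4, against 10.7, 9.14, 8.88, 15.6 and 6.86 CPM in DN2/3 libraries (log2 fold -0.83, SE 0.25, adjusted p = 0.0161). Both calls ended without Ldb1-KO DN2/3 replicate 4, and that of Hist1h2bc also without Ldb1-KO DN4 replicate 5, while with the block the adjusted p was 0.000179 and 4.58e-05. Hist1h2bj had a log2 fold of 0.97 (SE 0.44, adjusted p = 0.0987) without the block and an adjusted p of 0.000668 with it. Of the S-phase genes 18 of 28 and of the mitotic genes 18 of 18 were called higher over this step. All 3 later-thymocyte markers were called higher, with sums of 687 ± 462 CPM in DN4 and 57.1 ± 8.73 CPM in DN2/3 cells, and 1 of 3 B-cell markers was. Of 4 myeloid markers 3 were called lower, with sums of 12.8 ± 4.17 CPM in DN4 and 31.9 ± 4.01 CPM in DN2/3 cells, and the part of these lists in the histone change was not tested.

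**Figure D4:**
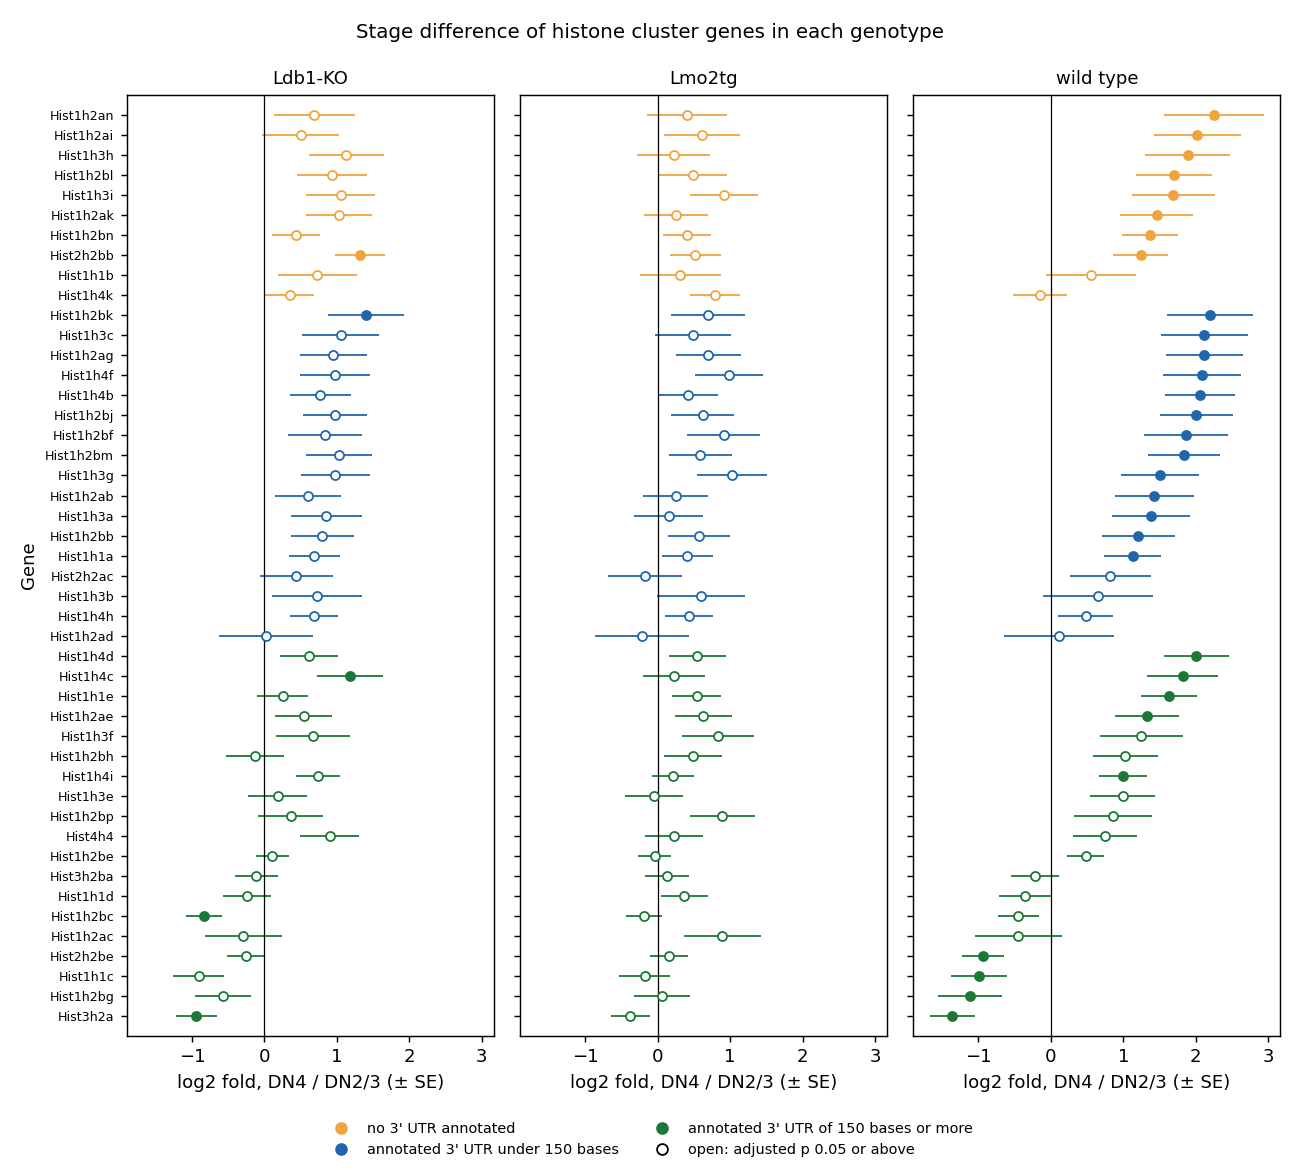
Log2 folds with SE (x axis) of DN4 over DN2/3 for the 46 kept genes (rows, grouped and coloured by annotated 3′ UTR) in Ldb1-KO, Lmo2tg and wild type, with filled points for an adjusted p below 0.05. In wild type the genes with a short or no annotated 3′ UTR lie mostly above 1, and those with a long one spread on both sides of 0, down to -1.36 for Hist3h2a.

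Whether the stage step differed between genotypes was tested as the difference of the genotype effects between DN4 and DN2/3. For the Lmo2tg effect, 1 gene was called higher and 0 lower, while 14.7% of all genes were called higher and 11% lower. By unadjusted p below 0.05, 2 genes were higher and 9 lower in edgeR, and DESeq2 called 1 higher and 3 lower. The called gene was Hist2h2be, whose call without the block ended when any of 11 libraries was left out (log2 fold 1.1, SE 0.39, adjusted p = 0.04, and log2 fold 1.06, SE 0.13, adjusted p = 2.38e-05 with the block), which was at 14.8 ± 6.65 CPM in Lmo2tg and 10.4 ± 1.5 CPM in wild type at DN4 and at 13.3 ± 5.14 CPM in Lmo2tg and 19.9 ± 3.87 CPM in wild type at DN2/3. With the replicate block, 4 genes were called higher and 18 lower, while 25.8% of all genes were called higher and 23.7% lower, and without Lmo2tg DN4 replicate 4 and the block, 1 was higher and 17 lower. A lower value here means that the excess of Lmo2tg over wild type was smaller at DN4 than at DN2/3. Hist1h2bj had log2 fold -1.39, SE 0.65, adjusted p = 0.115, and log2 fold -1.58, SE 0.31, adjusted p = 0.000627 with the block, and Hist1h3c had log2 fold -1.63, SE 0.78, adjusted p = 0.123, and log2 fold -2.08, SE 0.41, adjusted p = 0.000702 with the block. The median over the kept genes was -0.74, against 0.08 for all genes. For the Ldb1-KO effect, set against Lmo2tg, 0 genes were called in either direction by edgeR, also 0 at an unadjusted p below 0.05, and DESeq2 called 0, while 0.132% of all genes were called higher and 1.22% lower. With the block 0 were called higher and 2 lower, while 6.25% of all genes were called higher and 7.2% lower, and the median log2 difference without it was 0.18.

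Histone RNA also varied between libraries of the same transgenic group, and same-numbered libraries can be set side by side. In Lmo2tg, replicates 2 and 4 had the highest sums of the 68 rows at both stages, 146.8 and 216.1 CPM in DN4 and 145.3 and 149.5 CPM in DN2/3, and the other 3 replicates lay at 68.77 to 141.2 CPM in DN4 and 82.97 to 100.2 CPM in DN2/3. In Ldb1-KO, replicates 2 and 4 were likewise the highest at both stages, 140.5 and 141.5 CPM in DN4 and 130.5 and 162.3 CPM in DN2/3, and replicate 3 was the lowest at both. What a replicate number shares between stages, such as an animal or a day, the sources used here do not say. With 5 numbers a genotype, no correlation was computed.

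**Figure D5:**
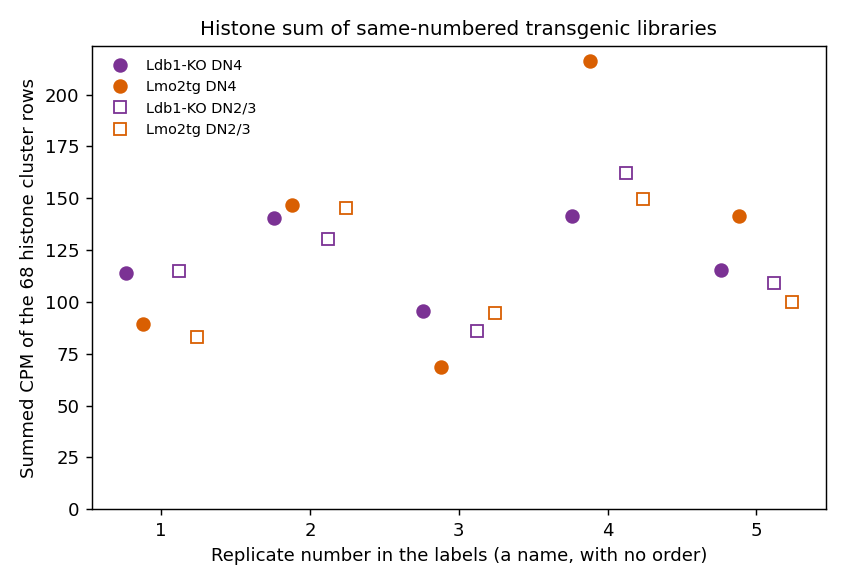
Sum of the 68 histone rows in CPM (y axis) by replicate number (x axis) for the Ldb1-KO and Lmo2tg libraries at each stage, 1 point per library. Replicates 2 and 4 hold the 2 highest sums in each of the 4 groups, up to 216.1 CPM in Lmo2tg DN4 replicate 4.

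Some histone genes have human counterparts known to give polyadenylated messages as well, and 7 of the 9 so listed were kept. They are Hist1h1c, Hist1h2ac, Hist1h2bc, Hist1h2bk, Hist1h4h, Hist2h2be and Hist4h4, and together they summed to 32.4 ± 5.33 CPM in Ldb1-KO DN4, 34.5 ± 3.92 CPM in Lmo2tg DN4 and 23 ± 0.747 CPM in wild-type DN4 cells. At DN2/3 the sums were 43.6 ± 8.78 CPM in Ldb1-KO, 32.8 ± 4.42 CPM in Lmo2tg and 36.1 ± 3.28 CPM in wild-type cells. Of the 7, 3 were called higher and 0 lower in Lmo2tg against wild-type DN4 cells, namely Hist1h1c, Hist1h2ac and Hist1h4h, beside 28.9% of all genes called higher. At DN2/3, 2 were called higher and 0 lower, Hist1h2bk and Hist1h4h, beside 15.1% of all genes called higher. In wild-type DN4 against DN2/3 cells, 1 was called higher (Hist1h2bk, log2 fold 2.2, SE 0.59, adjusted p = 0.00392) and 2 lower (Hist2h2be and Hist1h1c), beside 21.1% of all genes called higher and 24.8% lower, and the median log2 fold of the 7 was -0.45. These counts are of 7 genes and are read as no result about the list. Hist1h2ac, an H2A gene, was at 0.386, 0.418, 0.579, 1.77 and 0.334 CPM in the Lmo2tg DN4 libraries, against 0.41, 0.257, 0.254 and 0.0761 CPM in the wild-type DN4 libraries (log2 fold 1.48, SE 0.58, adjusted p = 0.0348), and its highest value was that of Lmo2tg replicate 4. The call ended without that library and without wild-type DN4 replicate 2, 3 or 4. Hist4h4, the single row with a Hist4 symbol, was at 0.326 ± 0.062 CPM in Lmo2tg and 0.439 ± 0.258 CPM in wild-type DN4 cells (log2 fold -0.43, SE 0.42, adjusted p = 0.402).

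Genes that make, process or use histone RNA and protein were counted from the same fits, in which 15.1% of all genes were called higher and 14.4% lower in Lmo2tg against wild-type DN2/3 cells, and 28.9% higher and 23.5% lower at DN4. Of 19 factors of histone mRNA synthesis and decay, 3 were called higher and 3 lower in Lmo2tg against wild-type DN2/3 cells, and 2 higher and 8 lower at DN4, so the DN2/3 count lies near the shares of all genes. Lsm11, a subunit of the U7 snRNP, was at 26.7 ± 2.28 CPM in Lmo2tg and 43.2 ± 2.86 CPM in wild-type DN4 cells (log2 fold -0.69, SE 0.08, adjusted p = 4.65e-07), and at 33.1 ± 1.63 CPM in Ldb1-KO DN4 cells, higher than in Lmo2tg (log2 fold 0.31, SE 0.08, adjusted p = 0.00852). Hinfp, a transcription factor of H4 genes, was at 20.9 ± 2.12 CPM in Lmo2tg and 26.6 ± 1.79 CPM in wild-type DN2/3 cells (log2 fold -0.35, SE 0.09, adjusted p = 0.00638). Slbp was called higher in Lmo2tg than in wild-type DN2/3 cells, at 220.4 ± 71.9 CPM in Lmo2tg and 149 ± 3.85 CPM in wild type (log2 fold 0.56, SE 0.18, adjusted p = 0.0205), and was not called in Ldb1-KO against Lmo2tg DN4 cells (log2 fold 0.49, SE 0.17, adjusted p = 0.0555). Of 18 histone chaperones, 1 was called higher and 0 lower in Lmo2tg against wild-type DN2/3 cells, and 2 higher and 8 lower at DN4, where Chaf1b, a subunit of the assembly factor CAF-1, was at 74.6 ± 30.4 CPM in Lmo2tg and 156 ± 16 CPM in wild-type cells (log2 fold -1.07, SE 0.21, adjusted p = 0.000244). Of the 11 histone genes expressed independently of replication, 4 were called higher and 1 lower at DN2/3 in that comparison. H3f3a, which encodes H3.3, was at 728 ± 65.5 CPM in Lmo2tg and 364 ± 32.3 CPM in wild-type DN2/3 cells (log2 fold 1.0, SE 0.09, adjusted p = 1.77e-09), and at 751 ± 76.4 and 523 ± 21 CPM at DN4 (log2 fold 0.52, SE 0.09, adjusted p = 2.69e-05). In wild-type DN4 against DN2/3 cells, 11 chaperones were called higher and 1 lower, and 11 factors of histone mRNA higher and 3 lower, beside 21.1% of all genes called higher and 24.8% lower.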

How the data were processed

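The deposited table holds raw counts per gene, made by the authors with STAR 2.5.2a and featureCounts 1.4.6-p3 on mm10, per the submitters' processing notes. Per the labels' protocols, cDNA libraries came from the TruSeq RNA Sample Prep V2 kit and were read paired-end at 101 bases. The sources used here do not give the strand setting, the gene annotation or the treatment of reads that match several genes. The columns without a sample numbered 0.

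For the rule that kept genes, CPM were counts per M counts of the library total. All CPM levels and sums given here were instead counts per M of the TMM-scaled library size, taken over the genes tested. Groups were compared with edgeR 4.0.16 (R 4.3.3, limma 3.58.1) in 1 quasi-likelihood fit of all 28 libraries and 6 groups, with filterByExpr, TMM scaling and Benjamini-Hochberg adjustment over the 14371 genes tested, and a gene was called at an adjusted p below 0.05. DESeq2 1.42.0 was an alternative, and the edgeR fit was tested on simulated data with known changes. Library totals of 28.1 to 106.9 M counts limit how well genes near 0.5 CPM were measured. Replicates of a group differed by more than counting noise in every pair (lowest chi-square per degree of freedom 27.1), so each library was counted as a sample. The labels give 5 Ldb1-KO replicates a stage where the design text gives 4, and the labels were followed.

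Histone genes and the lists of related genes were chosen with earlier results of these data known. Genes named were those with the highest mean CPM and the smallest adjusted p of each class and comparison, called genes that went against the rest, genes with polyadenylated messages, and the genes of each list with the smallest adjusted p; a few others are named as examples, chosen after their values were seen. Stem-loops were searched in GENCODE M21 transcripts, shared stretches were 101-base runs found in transcripts of other genes, and motifs were searched in RefSeq promoter windows.

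Replicate numbers pair the stages within a genotype, taken from the data: deviations of same-numbered DN4 and DN2/3 libraries from their group means correlated at 0.29 to 0.53 in Ldb1-KO, 0.51 to 0.65 in Lmo2tg and 0.15 to 0.33 in wild type. Between Ldb1-KO and Lmo2tg the numbers paired libraries only in part. Same-numbered libraries correlated at 0.03 to 0.2 at DN2/3 (3 of 5 over 0.1) and at -0.08 to 0.34 at DN4 (2 of 5). Between transgenic groups and wild type, 0 of 4 numbers were over 0.1 in any pair of groups. Columns of the transgenic libraries are numbered in sets by replicate. Replicates 4 and 5 had 28.1 to 44.9 M counts, and replicates 1 to 3 had 45.8 to 74.7 M. Whether a set shares a batch was not tested. The block within genotype, the block within library series and the TMM-scaled CPM rule were added after the data were seen; other filters, size factors, fits of the compared groups only and leaving out each library were also tried. The lists' markers held 1 more gene that is not reported here.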

Additional observations from a re-analysis of the deposited data

Results flagged for a closer look

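Among 156 sets of 1 gene in 1 group, 9 held a library that stood apart from the others by Dixon's test, and chance flags about 1 in 20. In Lmo2tg DN4 replicate 4, Hist1h2ac was at 1.77 CPM with the next library at 0.579 CPM, Hist1h3i at 4.64 CPM with the next at 1.98 CPM, and Hist1h4d at 5.27 CPM with the next at 2.09 CPM. Hist1h1c stood apart in Lmo2tg DN4 replicate 2, at 13.6 CPM against 7.45 CPM in the next library. Hist1h2bn did so in Lmo2tg DN2/3 replicate 2, at 1.33 CPM with the next at 0.764 CPM, and in wild-type DN2/3 replicate 1, at 0.293 CPM with the next at 0.143 CPM. In the same wild-type DN2/3 library Hist1h3a was at 1.2 CPM with the next at 0.626 CPM. Hist1h2bp was at 0.557 CPM in wild-type DN4 replicate 1, with the next at 0.159 CPM. Hist1h2ag was at 1.7 CPM in Ldb1-KO DN2/3 replicate 4, with the next at 0.995 CPM.

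For Hist2h2be the Lmo2tg effect differed between the stages, by 1.1 on the log2 scale, DN4 minus DN2/3 (SE 0.39, edgeR adjusted p = 0.04). This call ended when any one of 11 libraries was left out. It also ended with no filter on low counts and in a fit of the compared groups only.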

How the results depend on the processing

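Under the alternatives run, 0 of the values changed sign where called. Of 61 called folds of named genes, 37 stayed called without each library in turn and 51 under the other settings but the blocks added after the data were seen. The replicate block within genotype, which follows the pairing, called 26 genes in Ldb1-KO DN4 against DN2/3 (5 without it), 3 in Lmo2tg DN4 against DN2/3 (0 without it), 22 in the stage difference of the Lmo2tg effect (1 without it) and 2 in that of the Ldb1-KO effect (0 without it). A replicate block across all groups gave 9 in Ldb1-KO DN4 against DN2/3 and 3 in the Lmo2tg stage difference, and a block within library series gave 20, 15 and, in Ldb1-KO against Lmo2tg DN2/3, 6 (1 without it); the block changed no other count of calls by over 1.5 times. With the compared groups only, 16 genes were called in Ldb1-KO against wild-type DN4, 17 in Ldb1-KO DN4 against DN2/3 and 0 in the Lmo2tg stage difference. With no filter, 3 and 0 were called in the last 2. The Lmo2tg stage difference had 2 calls with DESeq2 size factors, 2 with the 0.5 CPM filter and 4 with DESeq2's Wald test, which also gave 2 in Ldb1-KO against Lmo2tg DN2/3. Without 1 library in turn the counts ran from 12 to 25 for Lmo2tg and from 4 to 11 for Ldb1-KO against wild-type DN2/3, from 9 to 14 for Lmo2tg and from 5 to 7 for Ldb1-KO against wild-type DN4, and from 0 to 3 at DN2/3 and 0 to 1 at DN4 for Ldb1-KO against Lmo2tg. For DN4 against DN2/3 they ran from 2 to 7 in Ldb1-KO, from 0 to 1 in Lmo2tg and from 22 to 32 in wild type. The Lmo2tg stage difference ran from 0 to 18, the 18 being without Lmo2tg DN4 replicate 4, and the Ldb1-KO one stayed at 0. The count for Ldb1-KO DN4 against DN2/3 was 2 without Ldb1-KO DN4 replicate 5, and 3 without Ldb1-KO DN4 replicate 1, Ldb1-KO DN2/3 replicate 1, 2 or 4, Lmo2tg DN4 replicate 5, wild-type DN4 replicate 1 or 3, or wild-type DN2/3 replicate 1, 2 or 3. Ldb1-KO against Lmo2tg DN2/3 had 3 calls without Lmo2tg DN4 replicate 3 and 2 without Lmo2tg DN4 replicate 4. The cause was not tested. Shares of all genes called are given above only for the main fit and the block within genotype. The counts under other settings have no such share beside them. Other rules on low values kept 37 genes (1 CPM), 38 (each library of any group), 46 (TMM-scaled CPM) and 55 (filterByExpr). Near 0.5 CPM, low counts limit single genes.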
